A study of Mus musculus with 4 samples.

Results

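Cytoplasmic ribosomal protein genes were the 81 genes whose name on the array was Rpl or Rps followed by a number, with or without a closing a, x or l, or was Rplp0, Rplp1, Rplp2 or Rpsa. They were 81 of the 37074 genes named on the array, with 49 in the large subunit and 32 in the small subunit, and were read by 176 probes. Whole mouse embryos were studied to ask what the loss of Dyrk2, a gene for a protein kinase, changes in gene expression during organ formation. Total RNA was labelled with 1 dye and hybridised to 4 Agilent arrays on 1 slide. The 4 groups were wild-type (WT) and Dyrk2-KO embryos at E8.5 and at E10.5, E standing for the embryonic day, with 1 array each, so no difference between 2 arrays had a replicate check. All were C57BL/6. The knockouts came from CRISPR/Cas9 nickase editing that left small deletions in Dyrk2, and the sample labels name neither the line used nor how many embryos were pooled, if any.

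The targeted gene was read first. Levels are log2 signal minus the array's own 75th percentile over all probes, and an array's order is WT at E8.5, KO at E8.5, WT at E10.5 and KO at E10.5 throughout. The brightest Dyrk2 probe stood at 0.062, 0.76, -0.31 and 0.34, so it was 1.62-fold higher on the KO array at E8.5 and 1.57-fold higher at E10.5. It stayed higher on both KO arrays under all 7 ways of scaling the arrays that were computed. The other Dyrk2 probe differed by 0.032 and 0.28 log2, and its ratio at E8.5 turned negative without scaling, with spike-in scaling and with scaling to the median. Whether either probe lies inside the deleted stretch was not analysed here, so these values do not check the label, and the arrays are named by their labels below.

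Markers of the embryo were present on each array. All 5 heart, all 6 neural, all 4 primitive streak and tail bud and all 5 proliferation genes were well above background on every array. The summed linear level of the 5 proliferation genes was 193.5, 187.0, 169.6 and 177.2 times the 75th percentile, led by Pcna. The heart sum was 183.4, 187.4, 93.87 and 97.2, led by Myh6. The neural sum was 16.28, 14.91, 39.6 and 30.87, led by Sox2 at E8.5 and Tubb3 at E10.5, and the streak sum was 36.29, 29.997, 3.12 and 2.393, led by Cdx2 at E8.5 and Fgf8 at E10.5. Each of these 4 sums differed more between the stages than between the genotypes of a stage. Of 10 decidua and trophoblast genes on the array, 3, 4, 2 and 2 were above background, with summed levels of 3.323, 2.986, 3.11 and 4.51 led by Bmp2 at E8.5 and Dcn at E10.5.

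Erythroid and yolk sac markers did not divide by stage alone. The summed level of 13 erythroid genes was 18.95 on the WT array at E8.5, 390.7 on the KO array at E8.5, 1388 on the WT array at E10.5 and 1628 on the KO array at E10.5. The most abundant was Hbb-bh1 at E8.5 and Hbb-y at E10.5. By this sum the WT array at E8.5 was the low one of the 4. The 9 yolk sac endoderm genes summed to 53.61, 35.03, 24.96 and 20.37, led by Rbp4 at E8.5 and Afp at E10.5, and Apoa4 was below background at E10.5 on both arrays, with Amn below it on the KO array. The part of these tissues in the values of ribosomal protein genes was not tested, and fewer cells of a type and less RNA per cell cannot be told apart in whole-embryo RNA.

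Each ribosome holds 1 copy of almost every ribosomal protein, the large subunit joining amino acids and the small subunit reading the mRNA. The genes are transcribed strongly in growing cells, and their mRNAs begin with a run of pyrimidines, the 5′ TOP motif, through which mTOR and Larp1 control translation. In embryos, too little of 1 of these proteins can halt red cell formation or disturb the skeleton, in part because free Rpl5 and Rpl11 bind Mdm2 and stabilise p53.

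Of the 81 genes, 78 were well above background on all 4 arrays at their brightest probe, 46 in the large and 32 in the small subunit. Rpl39l passed on the 2 WT arrays and on neither KO array, and Rpl3l and Rpl10l passed on none. The filter asked for 1 array of a pair, so 79 genes entered 3 comparisons and 78 entered the comparison of stages on the KO arrays. By signal, 76 of the genes were among the 1000 brightest on the array. The median level of the genes tested was 7.48, 7.52, 7.35 and 7.42, and no spot was saturated on any array. The WT array at E10.5 was lowest and the KO array at E8.5 highest, and that order did not survive scaling to the spike-in probes, where the KO array at E8.5 was lowest at 4.459 and the KO array at E10.5 highest at 5.004.

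At E8.5, 40 of the 79 genes were higher and 39 lower on the KO array than on the WT array, with a median log2 ratio of 0.0026 beside -0.0224 over all 20709 genes tested, and the sign of the members' median flipped to negative under each of the 6 other scalings. A signal ratio of 1.5-fold or more, a threshold the study used, was reached by 2 members upward and 3 downward, the latter counting Rpl39l, which was below background on the KO array, beside 11.6% of all genes tested (2410 of 20709). At E10.5 the median was 0.0845 beside -0.0008 over all 21209 genes, with 65 members higher and 14 lower, and the sign flipped to -0.0473 without scaling. At E10.5 the signal ratio of 1 member, Rpl39l again, passed 1.5-fold downward from a KO value below background, and 0 members above background on all 4 arrays passed, beside 7.72% of all genes (1638 of 21209). All genes include many dim ones. Among the 1000 brightest genes, 2 of 76 members were past 1.5-fold upward and 2 downward at E8.5, beside 11 upward and 24 downward of 924 other genes, and at E10.5 it was 0 in both sets.

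Between the stages the members' median was lower at E10.5 under the main scaling. On the WT arrays it was -0.175 beside -0.0824 over 21643 genes, with 14 members higher and 65 lower, and it flipped to 0.0068 without scaling. On the KO arrays it was -0.135 beside -0.0525 over 21266 genes, with 14 higher and 64 lower, and it flipped to 0.17 without scaling and 0.50 with spike-in scaling. At 1.5-fold, 2 members rose and 1 fell on the WT arrays, beside 36.4% of all genes (7871 of 21643), and 2 rose and 0 fell on the KO arrays, beside 31.5% (6697 of 21266). Among the 1000 brightest genes, 2 of 76 members rose and 0 fell past 1.5-fold in each genotype, beside 16 up and 65 down of 924 others on the WT arrays and 25 up and 75 down on the KO arrays, and no test of these shares was made.

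**Figure D1:**
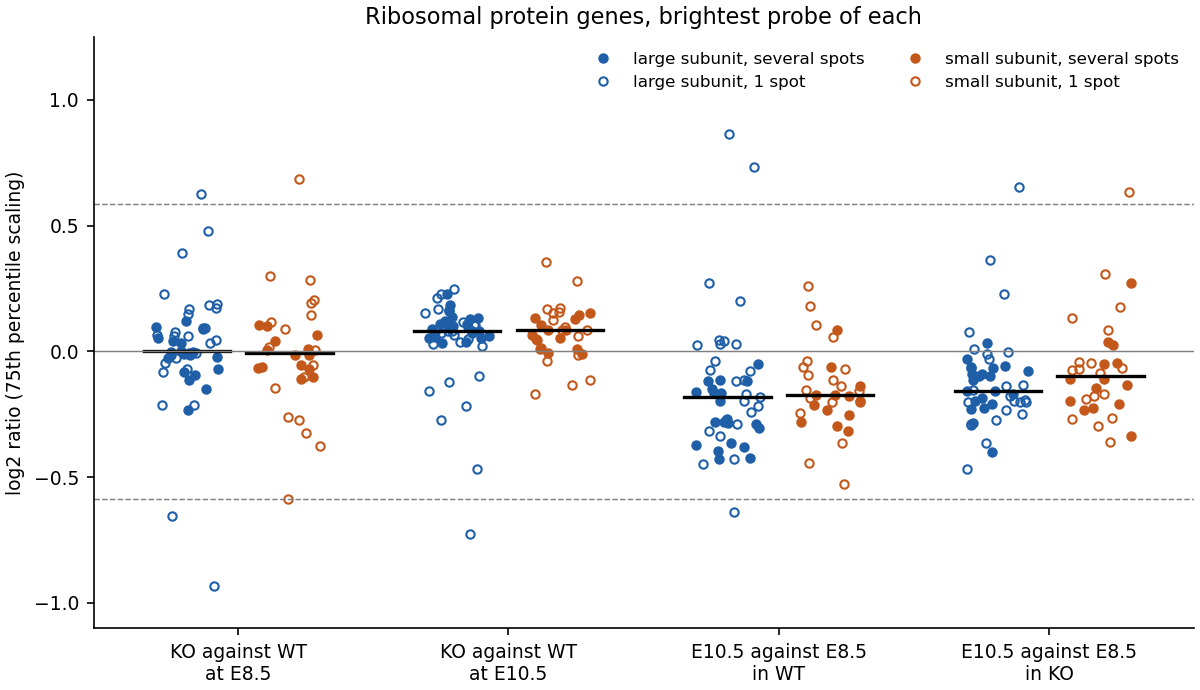
Log2 ratio (y axis, 75th percentile scaling) of each ribosomal protein gene at its brightest probe in the 4 comparisons (x axis), by subunit. Filled points are probes printed as several spots, open points are probes with 1 spot, black bars are medians and dashed lines mark 1.5-fold. The filled points stay inside the dashed lines in every comparison; under at least 1 other scaling each median changes sign, apart from those of the small subunit at E8.5 and of the large subunit between WT stages.

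The sign of these medians depended on the scaling between arrays. The array's 75th percentile stood at 8.61, 8.35, 8.79 and 8.66 log2, while the median of the spike-in probes, of which 7 of 10 were used, stood at 11.1, 11.4, 11.4 and 11.1. The KO array at E8.5 had the lowest percentile and the highest spike-in median, so its values depended most on which of the 2 references was used. Without scaling the median of all genes moved from -0.0224 to -0.28 at E8.5, from -0.0008 to -0.13 at E10.5, from -0.0824 to 0.0994 between WT stages and from -0.0525 to 0.25 between KO stages. With spike-in scaling it moved to -0.57, 0.16, -0.15 and 0.59. With scaling to the median of all probes it moved to -0.26 between WT stages and -0.19 between KO stages. Every single ratio given below for the main scaling shifts by the same amount, which without scaling is -0.26 at E8.5, -0.13 at E10.5, 0.18 between WT stages and 0.31 between KO stages. With spike-in scaling the shift is -0.55, 0.16, -0.0701 and 0.64, so that a smaller ratio of the opposite sign flips.

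The distance of the members from all genes is not touched by such a shift. Without scaling and under every scaling that subtracts 1 number from an array, the members' median minus that of all genes was 0.025 at E8.5, 0.0853 at E10.5, -0.0926 between WT stages and -0.0821 between KO stages. Quantile normalization, which also reshapes the bright end of the scale, changed these differences to -0.0441, 0.0353, -0.0462 and 0.0037. The sign of the difference thus flipped at E8.5 and between KO stages. In the deposited table, whose 4 arrays share 1 distribution, they were -0.0461, 0.0397, -0.0473 and 0.0018, and with limma's normexp background correction they were -0.0362, 0.0621, -0.0773 and -0.0094.

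Counted gene by gene over the 7 settings, 2 members were higher and 36 lower on the KO array at E8.5 in every setting, and 41 changed sign. At E10.5, 19 were always higher, 5 always lower and 55 changed sign. Between WT stages 6 were always higher at E10.5, 37 always lower and 36 changed sign, and between KO stages 7 were always higher, 0 always lower and 71 changed sign. The members past 1.5-fold in every setting were Rpl35 and Rps20 at E8.5 and Rpl14 between WT stages, and 0 in the other 2 comparisons. These counts over the 7 settings were made for the members only, so no share over all genes stands beside them. At E8.5 the shifts without scaling, with spike-in scaling and with scaling to the median were all downward, at -0.26, -0.55 and -0.045. A ratio below 0 stays below 0 under them, so the split of 2 and 36 follows in part from the settings. Between KO stages the shifts without scaling and with spike-in scaling were upward, at 0.31 and 0.64, so the split of 7 and 0 does too. Under spike-in scaling alone, 27 members passed 1.5-fold downward at E8.5, beside 9851 of all 20709 genes downward, and 22 passed it upward between KO stages, beside 10646 of all 21266 genes upward.

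**Figure D2:**
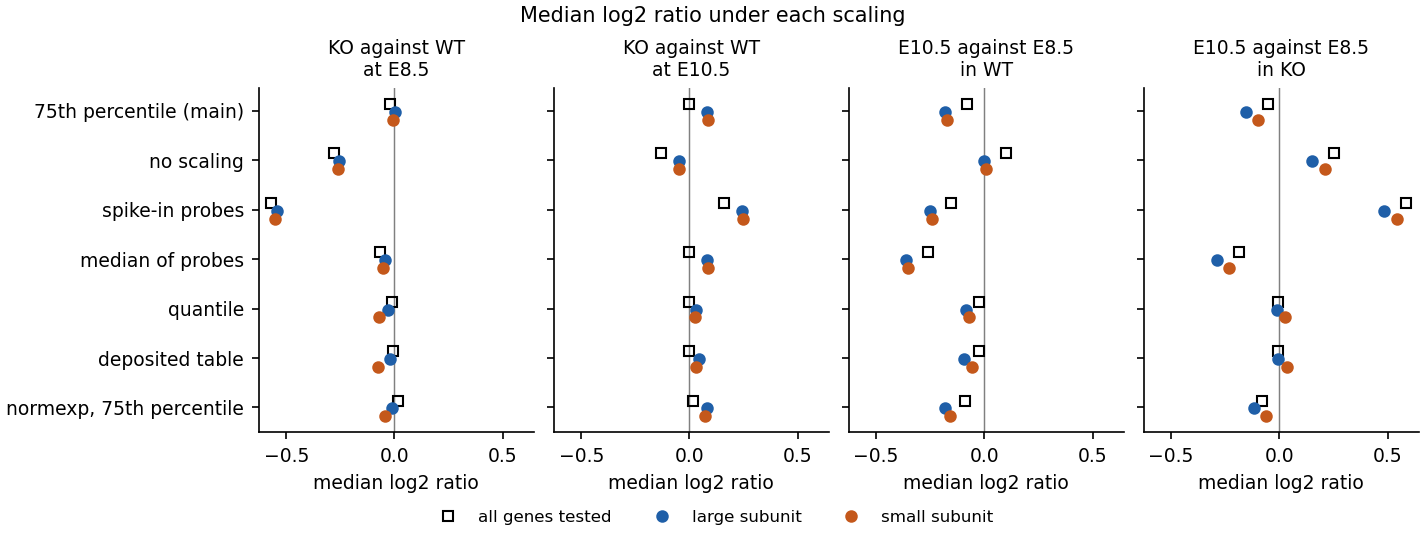
Median log2 ratio (x axis) of large subunit genes, small subunit genes and all genes tested under 7 scalings (y axis), 1 panel for each comparison. Without scaling and with scaling to the spike-in probes or the median, the large and small subunit points shift by the same amount as the squares of all genes. Under the other scalings they need not. With normexp at E8.5 all genes moved from -0.0224 to 0.0176, the large subunit from 0.0026 to -0.0136 and the small from -0.006 to -0.0415. At E8.5 the members' median runs from 0.0026 to -0.54.

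The large and small subunit genes were then taken apart. At E8.5 the median was 0.0026 for 47 large subunit genes and -0.006 for 32 small subunit genes, and at E10.5 it was 0.0816 and 0.0847. Between WT stages it was -0.18 and -0.17, and between KO stages -0.16 for 46 large and -0.0964 for 32 small subunit genes. The small subunit at E8.5 and the large subunit between WT stages were negative in all 7 settings and the other 6 medians flipped in at least 1, while the difference of large minus small stayed at 0.0086, -0.003, -0.0094 and -0.0597 under every scaling that subtracts 1 number. Quantile normalization gave 0.0432, 0.0044, -0.0119 and -0.0398, and no test of the difference was made.

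The stalk of the large subunit, which recruits elongation factors, is made of Rplp0, Rplp1 and Rplp2. Rplp0, also known as 36B4 and used as a reference gene in quantitative PCR in this study, stood at 7.64, 7.83, 7.47 and 7.56. At E8.5 its ratio was 0.18 log2, and at E10.5 it was 0.0816, under the main scaling, but it flipped to -0.0729 and -0.0502 without scaling and was -0.36 and 0.24 with the spike-in probes. Rplp1 stood at 7.93, 7.86, 7.50 and 7.57, and Rplp2 at 8.03, 8.09, 7.79 and 7.95. For all 3 both E10.5 arrays were below both E8.5 arrays under the main scaling, whereas Rplp0 was higher at E10.5 in both genotypes without scaling and all 78 members tested, these 3 included, were higher on the KO array at E10.5 with spike-in scaling.

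Rpl5 and Rpl11 carry the 5S RNA into the large subunit. Rpl5 stood at 7.43, 7.34, 7.0004 and 7.14, with both E10.5 arrays below both E8.5 arrays. Rpl11 stood at 7.75, 7.97, 7.78 and 7.50, with the KO array highest at E8.5 and lowest at E10.5. Rps27a is made as a fusion with ubiquitin and stood at 8.16, 8.27, 8.12 and 8.10. Fau, made as a fusion with a ubiquitin-like protein, lies outside the naming rule and stood at 7.99, 7.81, 7.95 and 7.98. None of these 4 genes reached 1.5-fold in any comparison at the brightest probe under the main scaling. A dim probe of Rps27a was at -1.77 log2 between WT stages and -1.51 between KO stages. With a gene taken as the mean of its probes, Rps27a was past 1.5-fold in both comparisons of stages.

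Paralogs with restricted expression were set beside their parent genes. Rpl39l, which stands in for Rpl39 in the exit tunnel in some cells, stood at -4.37, -5.30, -4.57 and -5.29. Only the WT arrays were above background, so it was at least 1.11-fold lower on the KO array at E8.5 and at least 1.15-fold lower at E10.5, and its signal ratios of -0.93 and -0.73 log2 rest on KO values below background. Its parent Rpl39 stood at 7.44, 7.22, 7.48 and 7.59, with the KO array lowest at E8.5 and highest at E10.5. Rpl3l, the muscle form of the peptidyl transferase protein Rpl3, and Rpl10l, the form used in sperm precursors in place of Rpl10, were below background on all 4 arrays.

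Rpl3 itself stood at 7.52, 7.64, 7.14 and 7.24 and Rpl10, which joins the large subunit last, at 8.15, 8.30, 8.08 and 8.10. Rps27l, a p53-responsive copy of Rps27, stood at 6.05, 5.78, 5.53 and 5.70, while Rps27 stood at 7.56, 7.60, 7.49 and 7.55. Rps4l stood at 4.93, 4.67, 4.48 and 4.37 and its parent Rps4x at 6.78, 6.78, 6.59 and 6.72. Both Rps27l and Rps4l were highest on the WT array at E8.5, by more than their parents differed among arrays. Outside the naming rule, Rpl22l1 stood at 6.46, 6.17, 6.12 and 6.12 beside Rpl22 at 6.48, 6.33, 6.09 and 6.27. Rpl36al stood at 5.53, 5.30, 4.99 and 5.02 beside Rpl36a at 7.38, 7.15, 6.96 and 7.07, and Rpl7l1 at 1.08, 0.84, 0.32 and 0.34 beside Rpl7 at 8.06, 8.05, 7.61 and 7.86. Of these 6, all were highest on the WT array at E8.5, and Rpl7l1 passed 1.5-fold on the WT arrays between stages, at 1.69-fold lower.

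The X-linked members were Rpl10, Rps4x, Rpl36a and Rpl39. Their log2 ratios at E8.5 were 0.15, 0.0041, -0.23 and -0.21, and at E10.5 they were 0.0215, 0.12, 0.11 and 0.10. The sample labels name no sex, and sex-linked genes, looked at after their values were seen, differed on the KO array at E10.5. Xist was above background on that array alone, at a level of -0.37, and Ddx3y, Eif2s3y, Kdm5d and Uty were detected on the 3 remaining arrays but fell below background there. Genotype and sex therefore cannot be told apart at E10.5. The same markers differ between the 2 KO arrays, so stage and sex cannot be told apart there either, and the limma fit includes this array. All 19 members listed as mutated in Diamond-Blackfan anaemia, a failure of red cell formation, were tested. Their median was -0.0155 at E8.5, with Rps24 and Rpl11 highest at 0.68 and 0.23 and Rpl35 and Rps29 lowest at -0.66 and -0.38. At E10.5 it was 0.0848, with Rpl35a and Rpl18 highest at 0.21 and 0.16 and Rpl11 and Rpl31 lowest at -0.27 and -0.22. Beside these stood 0.0026 and 0.0845 for all members, with the same shifts by scaling.

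The members above background on both arrays and past 1.5-fold between genotypes at E8.5 were Rps24 and Rpl32 upward and Rpl35 and Rps20 downward. Rps24, which acts in the processing of the small subunit's RNA, stood at 7.22, 7.90, 7.48 and 7.64. The WT array at E8.5 was lowest and the KO array at E8.5 highest, giving 1.61-fold higher at E8.5 and 1.11-fold higher at E10.5. Rpl32, a large subunit protein, stood at 6.53, 7.16, 7.27 and 6.80, so that it was 1.54-fold higher on the KO array at E8.5 and 1.38-fold lower at E10.5. With spike-in scaling the E8.5 ratios of Rps24 and Rpl32 shrank to 0.14 and 0.0795 log2, and without scaling Rpl32 passed 1.5-fold downward at E10.5, at -0.60.

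Rpl35, which lies at the exit of the peptide tunnel, stood at 7.68, 7.03, 7.64 and 7.68, with the KO array at E8.5 low and the other 3 close together. Rps20, in the head of the small subunit, stood at 6.96, 6.38, 7.15 and 7.01, with the same array low. Rpl35 was 1.58-fold lower and Rps20 1.5004-fold lower on the KO array at E8.5, the latter just inside the threshold. Both kept this direction and stayed past 1.5-fold in all 7 settings at the brightest probe. Without scaling, with spike-in scaling and with scaling to the median, every ratio at E8.5 shifts downward. A fall past 1.5-fold therefore cannot be lost in those settings, whatever the gene. With a gene taken as the mean of its probes, Rpl35, Rps20 and Rps24 were not past 1.5-fold at E8.5. Next highest after these at E8.5 was Rpl14 at 0.48 and next lowest above background was Rps29 at -0.38, neither past 1.5-fold under the main scaling. At E10.5 the highest ratios above background were those of Rps12, Rps18 and Rpl7, at 0.36, 0.28 and 0.25, and the lowest those of Rpl32, Rpl11 and Rpl31, at -0.47, -0.27 and -0.22. Of the last 6, Rps12 lies in the beak and Rps18 in the head of the small subunit, and Rpl31 at the rim of the exit tunnel.

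All of these genes past 1.5-fold were read by a probe printed as 1 spot. The brightest probe was printed as several spots, at least 9, for 36 members and as 1 spot for 45, a split made after the values were seen. Among the 36 the ratios ran from -0.23 to 0.12 at E8.5, and 0 passed 1.5-fold in any of the 4 comparisons. For all probes printed as several spots the counts are known by whether they hold AATAAA, a motif described below. Of those above background on all arrays, 2 of 35 with it and 4 of 262 without it passed at E8.5. At E10.5 it was 0 and 6, between WT stages 13 and 20, and between KO stages 12 and 23. The standard deviation across the 36 genes was 0.079, 0.053, 0.112 and 0.119 in the order of the comparisons, beside 0.305, 0.195, 0.282 and 0.242 for the other members. Their medians were -0.0127 at E8.5, 0.0872 at E10.5, -0.22 between WT stages and -0.11 between KO stages, and these too move with the scaling, by the shifts given for all genes. At E10.5, 34 of the 36 were higher on the KO array and 2 lower under the main scaling.

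Other probes of the same gene gave a second reading. Among 137 pairs of probes for the same gene, both above background on all arrays and from 58 genes, the ratios of a pair differed by a median of 0.12 log2 at E8.5, 0.0844 at E10.5, 0.24 between WT stages and 0.17 between KO stages. They differed by more than 1.5-fold in 12, 3, 24 and 19 pairs. Where both probes were printed as several spots, 19 pairs, the median differences were 0.0734, 0.0556, 0.0842 and 0.0607, and 0, 0, 1 and 1 pairs differed by more than 1.5-fold. At Rps24, past 1.5-fold at E8.5, the other mRNA probes moved with the brightest. Its 3 probes for mRNA variants gave 0.68, 0.80 and 0.62 log2 at E8.5, and its 1 dim probe for a predicted variant gave -0.0978.

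Pairs of probes that share most of their bases were chosen after their values were seen, as those that share at least 30 bases with at most 3 mismatches. There were 7 such pairs in 7 genes, and their ratios differed by a median of 0.42 log2 at E8.5, with 3 of 7 beyond 1.5-fold, beside 0.12 for the 130 pairs that share no such stretch. In the other comparisons the medians were 0.0549 beside 0.0852 at E10.5, 0.26 beside 0.24 between WT stages and 0.0689 beside 0.17 between KO stages. By the median, the pairs that share bases thus differed more than the rest at E8.5 but less at E10.5 and between KO stages. Beyond 1.5-fold were 3 of 7 beside 9 of 130 at E8.5 and 1 of 7 beside 2 of 130 at E10.5. Between WT stages it was 2 beside 22 and between KO stages 1 beside 18, and no test of the difference was made. Stretches of 30 bases from 4 pairs are printed to show how small the differences in sequence were. The capitals mark the bases at which the 2 probes of a gene differ, the first line of each gene is its brightest probe, and positions are counted from 1 at the 5′ end of that probe.
Rplp1 probe 1: tgtcaacattgggaGcctcatctgcaatgt
Rplp1 probe 2: tgtcaacattgggaTcctcatctgcaatgt
Rpl35 probe 1: acgacaataaagtgCgagactgactggcaa
Rpl35 probe 2: acgacaataaagtgAgagactgactggcaa
Rps20 probe 1: aagacaactgaataaatcgActtaatAgtc
Rps20 probe 2: aagacaactgaataaatcgTcttaatGgtc
Rpl14 probe 1: cacagaataataaaGgttctttttgacggt
Rpl14 probe 2: cacagaataataaaAgttctttttgacggt

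In Rplp1 the difference was G33T over 43 shared bases, and the probes read alike, at -0.0694 and -0.0158 log2 at E8.5 and -0.43 and -0.42 between WT stages. In Rpl35 it was C44A over 57 shared bases, and the ratio at E8.5 was -0.66 at probe 1 and -0.24 at probe 2. In Rps20 the differences were A45T and A52G over 55 bases. Probe 1 of Rps20 fell by 0.59 on the KO array at E8.5 and probe 2 rose by 0.0906, whereas at E10.5 probe 1 was at -0.13 and probe 2 at -1.15. In Rpl14, with G45A over 51 bases, probe 1 stood at 7.18, 7.66, 8.04 and 7.88 and probe 2 at 6.95, 6.74, 6.74 and 6.90. The rise of Rpl14 between WT stages, past 1.5-fold in all 7 settings at probe 1, was thus a fall of 0.21 at probe 2 under the main scaling. A pair in Rps10 shared 40 bases with 0 mismatches and gave -0.32 and 0.77 at E8.5.

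**Figure D3:**
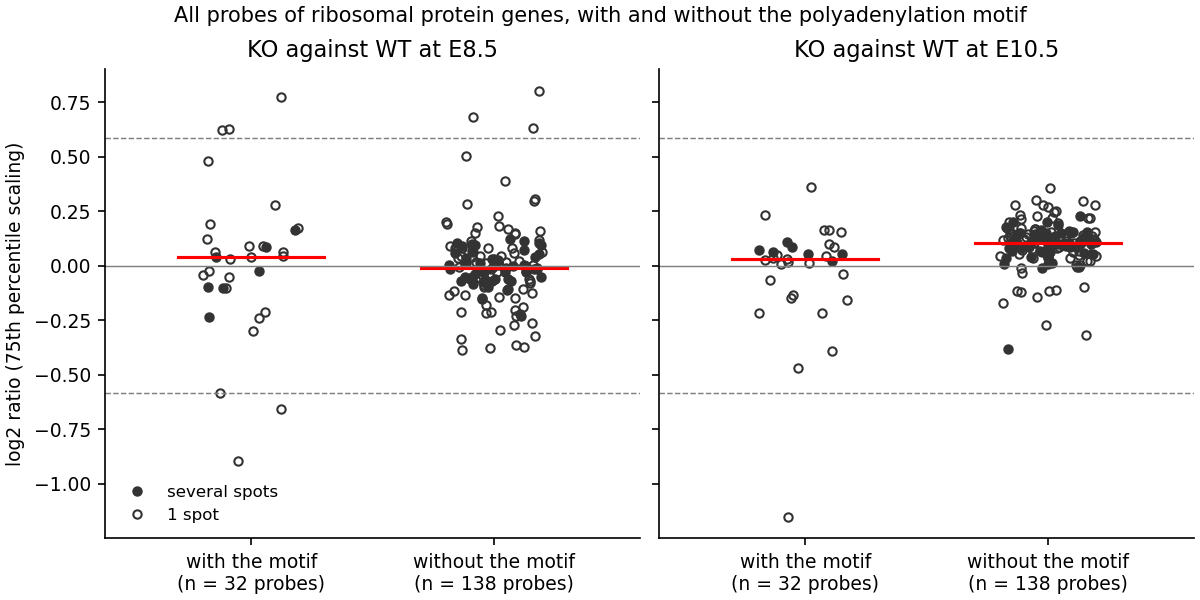
Log2 ratio (y axis, 75th percentile scaling) of all probes of ribosomal protein genes above background on all 4 arrays, by whether the probe holds AATAAA (x axis), at E8.5 and at E10.5. Filled points are probes printed as several spots, open points have 1 spot, red bars are medians and dashed lines mark 1.5-fold. At E8.5, 6 of 32 probes with the motif and 3 of 138 without it lie outside the dashed lines.

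The hexamer AATAAA directs the cutting and polyadenylation of mRNAs near their 3′ end. It was held by 33 of the 176 probes (18.75%), beside 9.77% of all probes with a gene name, a split also made after the values were seen. Of the probes above background on all arrays, 6 of 32 with the motif (18.75%) and 3 of 138 without it (2.17%) passed 1.5-fold at E8.5. The standard deviation of the ratio was 0.34 with it and 0.18 without it for the E8.5 pair, and 0.26 with it and 0.11 without it at E10.5, values that no subtraction of 1 number per array can change. At E10.5, 1 of 32 with the motif and 0 of 138 without it passed 1.5-fold, beside 3.75% and 3.01% over all genes. That 1 was probe 2 of Rps20 at -1.15, which is part of the 0.26. Over all genes the same split gave 7.15% and 6.91% past 1.5-fold at E8.5. Between stages, 5 of 32 member probes with the motif and 15 of 138 without it were past 1.5-fold on the WT arrays, beside 31.1% and 28.9% over all genes. On the KO arrays it was 4 and 10, beside 24.8% and 24.6%. By direction, 4 rose and 1 fell with the motif on the WT arrays, and 0 rose and 15 fell without it. On the KO arrays 3 rose and 1 fell with it, and 1 rose and 9 fell without it. The medians were 0.0165 and -0.2506 on the WT arrays and -0.0059 and -0.1583 on the KO arrays, and no test of these differences was made. Among member probes with 1 spot, 6 of 25 with the motif and 3 of 81 without it passed 1.5-fold at E8.5, and among those with several spots 0 of 7 and 0 of 57.

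Without the probes that hold AATAAA, an alternative added after the data were seen, 72 genes could be tested in the genotype comparisons. All probes of Rpl14, Rpl32, Rpl35 and Rpl39l hold the motif, so these genes were not among those tested, and Rps20 was left with a dim probe. Lower counts here therefore do not show that these genes fell below 1.5-fold. The members past 1.5-fold at E8.5 were then Rps24 alone, and at E10.5 there were 0. Between WT stages they were Rpl37 and Rps20, both downward, the latter at a dim probe. Between KO stages it was Rps20 alone, at -0.67 at that dim probe, whereas its brightest probe was at 0.63. The median of the members moved to 0.0009 at E8.5 and 0.0977 at E10.5.

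The limma fit used all 4 arrays, with a genotype and a stage term and 1 residual degree of freedom. For the genotype over both stages it called 0 of the members' 171 probes tested at an adjusted p under 0.05, beside 0.0186% of all 32289 probes (6), and 10 of the 171 had an unadjusted p under 0.05, beside 1592 of the 32289. At the brightest probe that was 3 of 79 genes, Rps24, Rps20 and Rps12, named after their values were seen, with effects of 0.42, -0.36 and 0.32 log2, the lowest adjusted p by limma being 0.851. For the stage over both genotypes limma called 35 of 171 probes, 6 higher and 29 lower at E10.5, beside 35.3% of all probes (11397 of 32289). At the brightest probe it called 6 of 79 genes, with Rpl14 and Rps20 higher and Rpl3, Rpl8, Rplp1 and Rps4l lower.

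Of those, Rpl3 fell by 0.39 on the log2 scale with an adjusted p by limma of 0.0226, and was lower in both genotypes. Rplp1 fell by 0.36 with an adjusted p by limma of 0.0329, Rps4l by 0.37 with 0.0346 and Rpl8, a protein near the peptidyl transferase centre, by 0.32 with 0.0466. Rpl14 rose by 0.54 with an adjusted p of 0.0218 and Rps20 by 0.41 with 0.0403, both at probes whose near-identical partners moved otherwise. The number of members called by stage ran from 0 with spike-in scaling or without the intensity trend to 33 with scaling to the median, beside 2633, 6437 and 15379 of all 32289 probes in these 3 settings.

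Between WT stages the highest ratios above background were those of Rpl14, Rpl32 and Rpl31, at 0.86, 0.73 and 0.27, and the lowest those of Rpl37, Rps27l and Rpl7, at -0.64, -0.53 and -0.45. Rpl37 has 1 probe, whose level was -2.54, -2.76, -3.18 and -2.95, with the WT array at E8.5 highest. Between KO stages the highest were Rpl35, Rps20 and Rpl39, at 0.65, 0.63 and 0.36, and the lowest Rpl11, Rpl3 and Rpl32, at -0.47, -0.40 and -0.36. These lowest values all turned positive with spike-in scaling. Rpl32 rose on the WT arrays and fell on the KO arrays under the main scaling, and with spike-in scaling it rose on both.

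A set of dim probes in the same genes moved apart from the brightest ones between stages. These were 17 probes of 16 genes whose mean level lay at least 4 log2 below the brightest probe, a gap chosen after the values were seen, and 14 of them had an identifier other than a RefSeq mRNA. Their median ratio between WT stages was -0.70, beside -0.15 for the brightest probes of the same genes, and 15 of 17 were lower than their partner. Between KO stages it was -0.57 beside -0.19, with 16 of 17 lower. At 1.5-fold 13 fell on the WT arrays and 8 on the KO arrays, and 0 rose. Without scaling 6 and 5 fell, and with spike-in scaling 15 fell on the WT arrays and 1 fell and 1 rose on the KO arrays. Of all 21643 genes at their brightest probe, 2584 fell past 1.5-fold on the WT arrays without scaling and 4466 with spike-in scaling. On the KO arrays 1550 of all 21266 genes fell without scaling, and 981 fell and 10646 rose with spike-in scaling. Limma called 13 of the 17 lower by stage and 0 higher, beside 6335 of all 32289 probes lower. With spike-in scaling these calls were lost, as limma called 0 of the members' 171 probes by stage, beside 2633 of all 32289. Without the intensity trend it called 8 of the 171, beside 6437 of all.

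The difference from the partner, a median of -0.59 on the WT arrays and -0.46 on the KO arrays, is not changed by subtracting 1 number per array, and was -0.75 and -0.57 after quantile normalization. Under spike-in scaling the dim probes' own median between KO stages was 0.0648. Outside the members, 2891 probes chosen by the same gap had a median of -0.0602 between WT stages beside -0.19 at their partners, with 395 past 1.5-fold downward and 358 upward. Between KO stages they were at -0.12 beside -0.13, with 443 downward and 279 upward. The dim probe of Rps27a stood at -1.95, -2.17, -3.72 and -3.68 and that of Rps12 at 0.97, 0.91, -0.45 and -0.25, both chosen after their values were seen. In each, both E10.5 arrays lay below both E8.5 arrays, by more than 1 log2 under the main scaling, while the brightest probe of Rps12 rose by 0.10 on the WT arrays, which flipped to -0.0756 with scaling to the median, and by 0.18 on the KO arrays. Between genotypes the dim probes were at -0.0978 at E8.5 and 0.12 at E10.5, with 0 past 1.5-fold under the main scaling. At E8.5, however, 2 passed 1.5-fold downward without scaling and 11 with spike-in scaling, beside 3177 and 9851 of all 20709 genes at their brightest probe. Of the 2891 outside the members, 89 were past 1.5-fold downward and 189 upward at E8.5 under the main scaling.

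Rps19, which is needed for the small subunit and is the gene most often mutated in Diamond-Blackfan anaemia, had 4 probes that moved differently, noticed after their values were seen. Its brightest probe stood at 7.72, 7.62, 7.81 and 7.89. A probe for another cDNA, also printed as several spots, stood at 7.33, 7.31, 6.65 and 6.27, so that the E10.5 arrays were low and the KO array lowest. The first rose by 0.0844 on the WT arrays between stages under the main scaling, and the second fell by 0.68. Limma gave the second probe a stage effect of -0.86 with an adjusted p of 0.000874, lower at E10.5 in both genotypes. This call was lost with spike-in scaling, where limma called 0 of the members' 171 probes by stage.

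Genes that build the ribosome were set beside the genes of its proteins. All 50 ribosome biogenesis genes listed, which act in rRNA transcription, processing and subunit assembly, were tested. Between WT stages their median was -0.82, with 49 lower and 40 past 1.5-fold downward, beside 3794 of all 21643 genes downward. After quantile normalization and in the deposited table it was 26, beside 3612 and 3609 of all genes. Between KO stages it was -0.65, with 49 lower and 27 past 1.5-fold downward (18 after quantile normalization and in the deposited table), beside 2963 of all 21266 genes. The fall of the biogenesis median between KO stages shrank to -0.35 without scaling, with 4 past 1.5-fold downward, beside 1550 of all 21266 genes. With spike-in scaling it shrank to -0.016, with 0 past 1.5-fold downward, beside 981 of all genes and a rise of 0.50 for the ribosomal protein genes. Between WT stages the 2 medians were -0.89 and -0.25 with spike-in scaling. No test of the difference between the lists was made. Limma called 46 of 50 lower by stage and 0 higher, beside 6335 of all 32289 probes and 4 of 79 ribosomal protein genes lower. Gnl3, a nucleolar GTP-binding protein, stood at 3.57, 3.44, 2.15 and 2.35, and it and Nmd3, an export adaptor of the large subunit, were lowest between WT stages at -1.42 and -1.36. Rrn3, a polymerase I factor, and Ubtf were highest at 0.19 and -0.22.

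Between genotypes the biogenesis median was -0.0645 for the E8.5 pair and 0.12 for the E10.5 pair, flipping to -0.0125 at E10.5 without scaling. At E8.5 Wdr12 and Heatr1 were lowest at -0.84 and -0.55 and Bop1 and Nle1 highest at 0.33 and 0.21. At E10.5 Rrn3 and Tcof1 were lowest at -1.15 and -0.19 and Nip7 and Mdn1 highest at 0.51 and 0.38. Limma called 0 of 50 for genotype. Under the main scaling 1 gene of 50 passed 1.5-fold at each stage, downward, and at E8.5 that became 6 without scaling and 27 with spike-in scaling, beside 1346, 3177 and 9851 of all 20709 genes downward in these 3 settings.

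Translation factors and other genes with a 5′ TOP mRNA were tested for 17 of the 18 names listed. Their medians were -0.0981 at E8.5, 0.0071 at E10.5, -0.18 between WT stages and -0.16 between KO stages, of which the last 3 flipped in sign under at least 1 other scaling, as between KO stages to 0.48 with the spike-in probes. Tpt1 and Pabpc1 were highest at E8.5, at 0.33 and 0.22, and Btf3 and Eef1b2 lowest, at -0.69 and -0.41. Limma called 3 of 17 lower by stage, beside 35.3% of all probes called either way, and 0 by genotype. The 77 mitochondrial ribosomal protein genes, which serve another ribosome, had medians of -0.15, 0.053, -0.28 and -0.15, turning to -0.0788 at E10.5 without scaling and to 0.16 between KO stages. Mrps27 and Mrpl28 were highest at E8.5, at 0.24 and 0.17, and Mrpl45 and Mrps14 lowest, at -0.54 and -0.51. Limma called 1 higher and 20 lower by stage, beside 35.3% of all probes called, and 0 by genotype.

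Regulators of ribosomal protein genes and of their translation were 13 genes, of which limma called 5 lower and 0 higher by stage, beside 35.3% of all probes, and 0 by genotype. The medians were 0.0126 at E8.5, 0.0118 at E10.5, -0.0643 between WT stages and -0.12 between KO stages, each of which changes sign under the shift without scaling. Mycn stood at 5.57, 5.45, 4.46 and 4.59 and Eif4ebp1, the brake on cap binding under mTOR, at 4.50, 4.54, 3.51 and 3.64. Both were lower on both E10.5 arrays and were the lowest 2 of the list between stages in either genotype. Between genotypes at E10.5 Myc and Larp1 were highest at 0.58 and 0.15 and Cdkn1a and Maf1 lowest at -0.19 and -0.0802. The 924 other genes among the 1000 brightest had medians of -0.0106, 0.0525, -0.23 and -0.15, beside 0.0038, 0.0847, -0.17 and -0.13 for the 76 members among them, and all but the -0.23 change sign under at least 1 other scaling.

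RefSeq start windows of build GRCm38.p6, from 250 bases before to 50 after a gene's start, were listed for 60 of the 81 members and 27025 genes in all. Of 5 patterns searched, all chosen after the data were seen, CTTTCC or its reverse complement GGAAAG lay in 32 of 60 windows (53.3%), beside 29.3% of all windows. CCGGAAG or CTTCCGG lay in 25 (41.7% beside 9.93%) and AAGATGGC or GCCATCTT in 5 (8.33% beside 3.19%). These 3 were searched on both strands and each was counted alone, although neighbouring matches can share letters. A C at the start itself with C or T in the next 4 bases, read on the gene's strand, was found in 13 (21.7% beside 3.01%), and 5 of C or T in a row within 10 bases of the start in 36 of 60 (beside 38.3%), the windows just counted included. A match is a description of the letters only.

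The windows of Rplp0, Rps2 and Rpsa were chosen for printing by a list written with earlier results known, from which Rplp1 and Rpl3 have no sequence here. Capitals mark matches to the first 3 patterns. Rplp0 is at chr5:115559317-115559481 on the plus strand, Rps2 at chr17:24719913-24720077 on the plus strand and Rpsa at chr9:120127516-120127780 on the plus strand, each ending 15 bases after the start.
Rplp0: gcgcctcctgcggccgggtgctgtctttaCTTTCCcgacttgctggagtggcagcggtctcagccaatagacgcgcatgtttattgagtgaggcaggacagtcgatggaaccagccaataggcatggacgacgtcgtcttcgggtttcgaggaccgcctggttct
Rps2: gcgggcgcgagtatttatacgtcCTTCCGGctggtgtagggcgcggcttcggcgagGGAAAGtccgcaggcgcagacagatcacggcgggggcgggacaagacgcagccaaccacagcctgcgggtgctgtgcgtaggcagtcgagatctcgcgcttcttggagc
Rpsa: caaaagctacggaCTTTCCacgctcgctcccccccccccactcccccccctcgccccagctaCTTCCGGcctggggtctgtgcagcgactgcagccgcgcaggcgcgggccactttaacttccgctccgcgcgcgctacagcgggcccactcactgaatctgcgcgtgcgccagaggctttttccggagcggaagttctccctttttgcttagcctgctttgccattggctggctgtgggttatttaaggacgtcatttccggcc
The 3 genes stood alike over the arrays, Rps2 at 7.55, 7.75, 7.30 and 7.39 and Rpsa, the laminin-binding protein of the small subunit, at 7.60, 7.80, 7.47 and 7.62, each highest on the KO array at E8.5 under the main scaling, an order that each lost with the spike-in probes.

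For Rplp2, Rpl14 and Rpl35, chosen after their values were seen, the 15 bases on either side of the start are printed to show the pyrimidine run at the mRNA's first base, in capitals. They lie at chr7:141447636-141447665 on the plus strand, chr9:120571502-120571531 on the plus strand and chr2:39005117-39005146 on the minus strand.
Rplp2: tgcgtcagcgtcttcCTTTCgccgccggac
Rpl14: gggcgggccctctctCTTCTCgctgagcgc
Rpl35: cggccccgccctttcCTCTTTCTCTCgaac
All 3 begin with C, and their log2 ratios at E8.5 were 0.0612, 0.48 and -0.66, a stalk gene near 0 and 1 gene toward either end of the members.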

How the data were processed

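Cy3 signal was measured on 4 Agilent SurePrint G3 mouse 8x60K v3 arrays, 1 for each genotype and stage. Per the file headers, the authors' scanner files hold linear intensity from Feature Extraction 10.7.1.1 (the labels name 9.5.1.1), background-subtracted and detrended within each array and not scaled between arrays. The deposited table holds linear intensity values whose 4 columns share 1 distribution.

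Spots that were not flagged as outliers were averaged per probe on the log2 scale, and each array's 75th percentile over the non-control probes was subtracted. A gene was its brightest probe. The filter asked for a signal well above background on either array of a pair, or on 2 of 4 arrays for limma 3.58.1 (R 4.3.3). Limma was fitted with genotype and stage, an intensity trend and Benjamini-Hochberg adjustment over all 32289 probes. The fit was also run on simulated data with independent noise on each array and the same change at both stages. That run does not check the fit for spread between embryos or for a change that differs between stages. With 1 array per group, their number limits the precision, and pairs of arrays were described by counts and medians only.

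Members, lists and tests were chosen with earlier results of these data known. Named with values were the members of the role and paralog lists, those past 1.5-fold between genotypes, and the 3 highest and 3 lowest of each comparison; other lists give the 2 highest and 2 lowest. Of the members' 176 probes, 140 had an accession in the RefSeq gene table, all 140 under the same symbol. The array's coordinates, in build mm9, put 7 of the 176 on another chromosome than the gene has in RefSeq, among them the brightest probes of Rps27 and Rps29, a look taken after the values were seen, and place the brightest Rps2 probe away from the other Rps2 probes. What these probes read was not tested. Alternatives were other scalings, filters, thresholds and choices of probe.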

Additional observations from a re-analysis of the deposited data

Results flagged for a closer look

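Rpl32 and Rpl35 had ratios of opposite sign on the KO arrays of the 2 stages at the brightest probe under the main scaling, with at least 1 of the 2 ratios past 1.5-fold. For Rpl32 the log2 ratio was 0.63 at the earlier stage and -0.47 at the later one, a difference of 1.096. Without scaling the 2 ratios were 0.37 and -0.60, and with spike-in scaling they were 0.0795 and -0.31, neither past 1.5-fold. The only Rpl32 probe holds AATAAA, as do both Rpl35 probes. For Rpl35 the log2 ratio was -0.66 at the earlier and 0.0356 at the later stage, a difference of -0.69, and its ratio at E10.5 turned to -0.0962 without scaling, -0.0356 after quantile normalization and -0.0287 in the deposited table. A second Rpl35 probe of near-identical sequence was lower on both KO arrays, at -0.24 and -0.22. Each rests on 1 array per group and 1 spot per array, and the difference between stages was not tested.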

How the results depend on the processing

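Limma called 0 members by genotype at the brightest probe in each of its settings, and the largest move of each of the members' medians came with a change of scaling. A scaling that subtracts 1 number from an array cannot change the difference between large and small subunit genes. Without scaling the members' median became -0.25 at E8.5, -0.0473 at E10.5, 0.0068 between WT stages and 0.17 between KO stages, with 2 members past 1.5-fold at E10.5 and 4 between KO stages, beside 9.20% and 35.6% of all genes. With the spike-in probes it became -0.54 at E8.5, 0.25 at E10.5 and 0.50 between KO stages, with 27 members past 1.5-fold at E8.5, 0 at E10.5 and 22 between KO stages, beside 49.0%, 8.43% and 54.7% of all genes. Scaling to the median of all probes gave -0.35 between WT stages and -0.27 between KO stages, with 8 and 1 members past 1.5-fold, beside 41.9% and 34.3% of all genes. Between KO stages the median was -0.0006 after quantile normalization and -0.0023 in the deposited table. The gap between the highest and lowest array in the members' median level, 0.17 under the main scaling, became 0.55 with the spike-in probes, 0.31 with the median, 0.043 after quantile normalization and 0.0375 in the deposited table.

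Members past 1.5-fold by signal numbered 5, 1, 3 and 2 in the order of the comparisons, with Rpl39l among the 5 and as the 1 on a KO value below background. With the normexp correction there were 3 at E8.5 and 0 at E10.5, beside 2.96% and 1.55% of all genes, with a filter on all 4 arrays 0 at E10.5 beside 3.09%, and with a gene taken as the mean of its probes 2 at E8.5 and 1 between KO stages beside 11.7% and 32.2%. Without probes holding AATAAA, chosen after seeing the data, there were 1, 0 and 1 at E8.5, at E10.5 and between KO stages, beside 11.6%, 7.69% and 31.5% of all genes. Rpl14, Rpl32, Rpl35 and Rpl39l have only probes with AATAAA and could not be tested in that setting, so its counts do not show them below 1.5-fold. Taking a probe with several spots first, also chosen after seeing the data, changed no count. At 2-fold there were 0 in each comparison. No share over all genes at 2-fold is given here, so that 0 is not read as a result about the members. Members called by limma for stage, 6 under the main fit, became 0 with the spike-in probes, 33 with the median, 2 with normexp, 0 without the intensity trend and 2 without a filter. Over all probes the calls, 11397 of 32289 in the main fit, became 2633, 15379, 10515, 6437 and, of 56604 without a filter, 13678. Among the members' probes, limma called for genotype 2 without scaling, 1 with the median and 2 without a filter, and 0 in the other settings. Over all probes it called 729 and 325 of 32289 and 564 of 56604 for genotype in these 3 settings, and at most 40 in the others. The cause of these changes was not tested.

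Each group had 1 array, so no difference between genotypes at a stage has an error over embryos, and leaving out an array would leave the limma fit with no residual degrees of freedom. The limma fit compared genotypes within stages through its stage term, and no other pairing of arrays was analysed. Genotype at E10.5 and stage on the KO arrays cannot be told apart from the sex markers that differ there, and the erythroid marker sums differ at E8.5. Probes of 1 spot have no spot error, and probes of near-identical sequence gave different ratios. No spot was saturated.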
